A study of Mus musculus with 12 samples.

Results

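Of the 35976 genes listed in the count files of 12 mouse scar libraries, 7 core genes of the Hedgehog pathway were taken by their symbols: *Shh*, *Ptch1*, *Smo*, *Gli1*, *Gli2*, *Gli3* and *Hhip*. All 7 were found, and all 7 passed edgeR's filter on low counts, together with 18853 genes in all. Scars of male mice, 8 to 12 weeks old, were sequenced in 4 groups of 3 mice: the sham (WTSH) and traction (WTTR) groups of Tem1WT/WT mice and the sham (lacZSH) and traction (lacZTR) groups of Tem1lacZ/lacZ mice. In the Tem1lacZ/lacZ line a *lacZ* reporter stands in place of the only exon of *Tem1* in every cell of the body, and the line had been backcrossed to C57BL/6J. Each mouse carried a 1.5-cm wound of the shaved back skin with a plastic device set over it on day 6, which was lengthened by 1 mm/day to 8 mm in the traction groups and left at its length in the sham groups. Only a part of each scar was used for RNA.

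Hedgehog signalling starts when a secreted ligand such as Sonic hedgehog binds Patched 1 on a neighbouring cell, which releases Smoothened from inhibition and turns on the Gli transcription factors. *Gli1*, *Ptch1* and *Hhip* are themselves textbook targets of the pathway, so their transcripts are often read as its output. In skin, *Shh* is made mainly by the epithelium of growing hair follicles and the signal is received by the dermal papilla and nearby fibroblasts and epithelium.

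None of the 7 genes passed the test in any comparison by edgeR. *Gli1* came closest: it was lower in all 3 WTTR libraries than in any WTSH or lacZTR library. The spread between mice of the same group was large for *Shh*, *Gli1*, *Ptch1* and *Hhip*, and these 4 genes varied together across libraries. *Gli1*, *Shh* and *Hhip* also varied with the level of hair matrix and shaft genes, some of them of the inner root sheath, in the same libraries.

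*Tem1* is listed in the files as *Cd248* and had between 3883 and 16413 counts in the Tem1WT/WT libraries and between 0 and 13 in the Tem1lacZ/lacZ libraries. Library totals were between 41536788 and 64644293 counts, and the highest total was that of WTSH replicate 2. Fibroblast markers, the defining genes of scar dermis, were present in every library, with a mean log2 CPM over 8 genes (*Col1a1*, *Dcn* and others) of 9.72 to 11.6.

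In GENCODE vM21 for GRCm38, *Shh* lies on the minus strand at chr5:28456815-28467256, *Ptch1* on the minus strand at chr13:63508328-63573598 and *Smo* on the plus strand at chr6:29735503-29761365. *Gli1* lies on the minus strand at chr10:127329882-127341974, *Gli2* on the minus strand at chr1:118834132-119053619, *Gli3* on the plus strand at chr13:15463235-15730026 and *Hhip* on the minus strand at chr8:79965851-80058006. Some of these genes are overlapped by others. The antisense gene *9530036O11Rik* covers 8983 bases of *Shh* and had at most 13 counts in a library, and *Arhgap9* shares its last 62 bases with *Gli1* on the other strand. Since the strand setting of the counting is not given in the sources used here, reads from such overlaps cannot be told apart.

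Promoter windows of RefSeq (GRCm38.p6), from 250 bases before to 50 bases after each start, were held for 5 of the 7 genes. The stretch before the start is shown for *Hhip*, whose level followed that of *Shh* most closely, and for *Smo*, whose level followed that of *Shh* least closely. Both are printed 5′ to 3′ on the strand of the gene, from chr8:80058009-80058258 and chr6:29735247-29735496, with capitals for the GC box GGGCGG on either strand.
Hhip: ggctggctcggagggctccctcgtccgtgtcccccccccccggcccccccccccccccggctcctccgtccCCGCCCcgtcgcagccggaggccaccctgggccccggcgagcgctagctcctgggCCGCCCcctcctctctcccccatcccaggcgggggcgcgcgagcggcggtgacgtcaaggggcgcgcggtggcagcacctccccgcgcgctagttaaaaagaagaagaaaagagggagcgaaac
Smo: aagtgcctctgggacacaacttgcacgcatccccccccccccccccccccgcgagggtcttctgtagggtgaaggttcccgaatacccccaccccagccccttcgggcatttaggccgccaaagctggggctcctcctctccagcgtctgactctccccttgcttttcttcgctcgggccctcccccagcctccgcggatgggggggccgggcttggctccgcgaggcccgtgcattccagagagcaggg
The *Hhip* stretch held 2 GC boxes and 28 CG pairs with 76% G and C, and the *Smo* stretch held 0 GC boxes and 15 CG pairs with 68.4% G and C. Over the whole window, a GC box was found in 4 of the 5 genes and in 35.7% of all 32851 RefSeq promoters. The letters GACCACCCA, the core motif bound by Gli proteins, were found on either strand in 0 of the 5 windows and in 0.253% of all promoters, which says only that these letters are not in these windows.

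Levels are given as TMM-normalized CPM (counts scaled to the size of the library), in the order of replicates 1, 2 and 3. Per kilobase of annotated exon, *Smo* had the highest mean level over the 12 libraries, at 15.1 CPM per kb. The other 6 genes lay much closer together, from 0.546 CPM per kb for *Hhip* to 3.43 CPM per kb for *Gli3*. Counts were lowest for *Hhip*, with 38 to 1212 per library, and for *Shh*, with 58 to 872, while *Smo* had 2693 to 6987.

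*Shh*, the ligand, was at 3.17, 12.7 and 4.64 CPM in WTSH and at 2.45, 3.33 and 2.98 CPM in WTTR. In Tem1lacZ/lacZ mice it was at 1.38, 5.96 and 3.67 CPM in lacZSH and at 3.08, 10.1 and 4.96 CPM in lacZTR. All 4 groups overlapped, and the highest library was 9.17 times the lowest. The order of the group means was WTSH, lacZTR, lacZSH and WTTR, at 6.82 ± 5.10, 6.06 ± 3.66, 3.67 ± 2.29 and 2.92 ± 0.445 CPM (SD, n = 3 each).

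*Ptch1*, the receptor that holds Smoothened in check, was at 31.7, 59.3 and 27.1 CPM in WTSH and at 28.4, 27.0 and 25.2 CPM in WTTR. It was at 16.1, 27.6 and 19.0 CPM in lacZSH and at 21.1, 50.4 and 35.6 CPM in lacZTR. As for *Shh*, WTSH replicate 2 and lacZTR replicate 2 stood above all other libraries. The WTTR libraries were close to each other, with a mean of 26.9 ± 1.58 CPM (SD, n = 3), inside the range of the lacZTR group.

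*Smo*, which encodes the signal transducer Smoothened, was at 77.5, 101.4 and 82.7 CPM in WTSH and at 89.6, 92.4 and 135.2 CPM in WTTR. It was at 64.1, 70.2 and 63.8 CPM in lacZSH and at 68.6, 93.6 and 79.0 CPM in lacZTR. All lacZSH libraries were below all WTSH libraries, and the highest library of the 12, WTTR replicate 3, was 2.12 times the lowest. *Smo* and *Gli2* varied least among the 7 genes.

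*Gli1*, the activator whose transcript rises with signalling, was at 13.4, 25.7 and 11.9 CPM in WTSH and at 6.66, 6.23 and 6.35 CPM in WTTR. It was at 4.81, 19.5 and 14.6 CPM in lacZSH and at 10.1, 22.0 and 11.4 CPM in lacZTR. The WTTR libraries were tightly grouped at 6.41 ± 0.225 CPM (SD, n = 3) and lay below every WTSH and lacZTR library, while the lacZSH group ran from below them to well above them.

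*Gli2*, the main activator of the pathway's targets, was at 12.4, 22.2 and 13.3 CPM in WTSH and at 10.9, 12.6 and 15.4 CPM in WTTR. It was at 11.5, 12.1 and 11.7 CPM in lacZSH and at 11.4, 21.2 and 14.4 CPM in lacZTR. The lacZSH libraries lay just below the WTSH libraries, and the other pairs of groups with a shared genotype or treatment overlapped.

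*Gli3*, which acts mainly as a repressor when the ligand is absent, was at 27.0, 48.9 and 31.6 CPM in WTSH and at 28.6, 41.4 and 57.1 CPM in WTTR. It was at 19.5, 23.7 and 23.6 CPM in lacZSH and at 20.5, 39.9 and 32.8 CPM in lacZTR. The lacZSH libraries were below all libraries of both Tem1WT/WT groups. The highest mean was that of WTTR for *Gli3* and *Smo*, at 42.3 ± 14.3 and 105.7 ± 25.6 CPM (SD, n = 3 each), and that of WTSH for the other 5 genes.

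*Hhip*, a membrane protein that binds and sequesters the ligand, was at 2.84, 17.6 and 4.39 CPM in WTSH and at 2.24, 3.98 and 2.86 CPM in WTTR. It was at 0.904, 5.01 and 3.27 CPM in lacZSH and at 2.69, 9.17 and 4.54 CPM in lacZTR. The highest library was 19.4 times the lowest, the widest range of the 7 genes. WTSH replicate 2 was the highest library and lacZSH replicate 1 the lowest for *Shh*, *Gli1*, *Ptch1* and *Hhip*. For all 7 genes, each group overlapped the next in the order of group means.

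**Figure D1:**
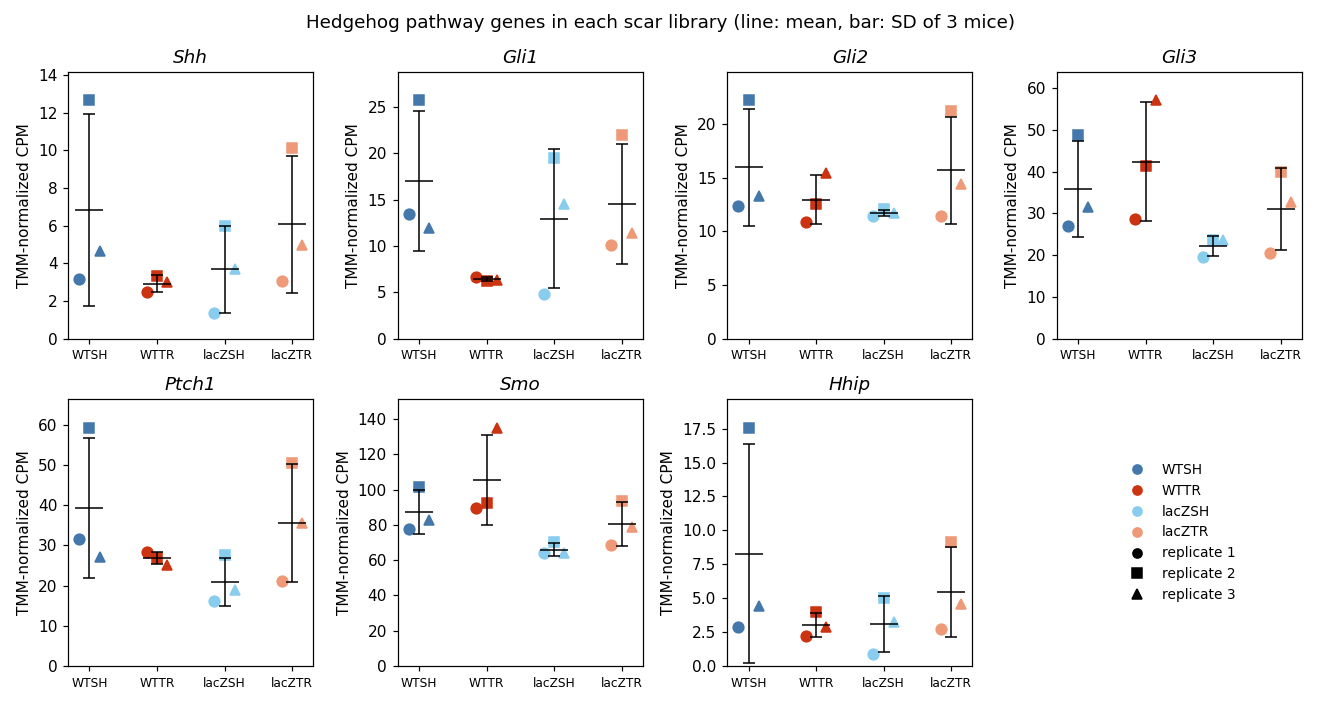
Level of each Hedgehog gene in the 12 libraries, in TMM-normalized CPM on a linear axis from 0, by group (colour) and replicate (symbol), with the group mean (line) and SD of 3 mice (bar). WTSH replicate 2 reaches 12.7 CPM for *Shh* and 17.6 CPM for *Hhip*, above all other libraries, and the 3 WTTR libraries sit together at 6.23 to 6.66 CPM for *Gli1*.

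The first comparison asks how traction on the wound relates to these transcripts in Tem1WT/WT mice. *Gli1* was lower with traction by 1.41 on the log2 scale (SE 0.48, edgeR adjusted p = 0.0801), *Hhip* by 1.45 (SE 0.75, adjusted p = 0.211) and *Shh* by 1.22 (SE 0.63, adjusted p = 0.206). *Ptch1* was lower by 0.55 and *Gli2* by 0.30, and *Gli3* and *Smo* were higher by 0.24 and 0.28, with adjusted p between 0.302 and 0.625 for these 4 genes. By edgeR 0 of the 7 genes were called at an adjusted p under 0.05, where 9.15% of all genes tested were called. At an unadjusted p under 0.05 there was 1 (*Gli1*), against 31.4% of all genes.

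The groups did not overlap for 1 of the 7 genes (*Gli1*), against 35.7% of all genes. The median log2 fold change of the 7 genes was -0.55, beside -0.01 over all genes tested. The study itself placed *Gli1* among genes it picked from these same libraries, so the value of *Gli1* is not independent evidence. limma-voom, here with sample weights, called 0 of the 7 and 3.97% of all genes. DESeq2 called 1, *Gli1* (log2 fold change -1.40, adjusted p = 0.0254), while calling 21.6% of the 18728 genes to which it gave an adjusted p. Without lacZSH replicate 1, edgeR also called *Gli1* (adjusted p = 0.0494), with 5.79% of all genes called. Without WTSH replicate 2 the log2 fold change was -0.96 for *Gli1*, -0.40 for *Shh*, -0.24 for *Hhip*, -0.11 for *Ptch1*, 0.035 for *Gli2*, 0.55 for *Gli3* and 0.42 for *Smo*, with adjusted p between 0.242 and 0.946.

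The same contrast in Tem1lacZ/lacZ mice gave positive values for all 7 genes, none of which passed the test. *Hhip* was higher with traction by 0.84 on the log2 scale (SE 0.75), *Ptch1* by 0.77 (SE 0.35) and *Shh* by 0.72 (SE 0.62), with edgeR adjusted p of 0.763, 0.614 and 0.756. *Gli3*, *Gli2*, *Smo* and *Gli1* were higher by 0.48, 0.42, 0.28 and 0.16, with adjusted p between 0.675 and 0.939. edgeR called 0 of the 7, as it called 0% of all genes, and limma-voom and DESeq2 also called 0, with 2.31% and 0.19% of all genes called. At an unadjusted p under 0.05 there were 0 of the 7, against 8.12% of all genes, and 0 of the 7 did not overlap between groups, against 12.9%. Without lacZTR replicate 2 the value was 0.24 for *Hhip*, 0.44 for *Ptch1*, 0.13 for *Shh*, 0.26 for *Gli3*, 0.14 for *Gli2*, 0.16 for *Smo* and -0.27 for *Gli1*. Without lacZSH replicate 2, *Hhip* was at 1.42, *Shh* at 1.30 and *Gli1* at 0.62.

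The genotypes were compared next, with and without traction. These comparisons share their libraries with the 2 above. Without traction, all 7 genes were lower in Tem1lacZ/lacZ than in Tem1WT/WT mice, and none passed the test. *Hhip* was lower by 1.44 on the log2 scale (SE 0.75, edgeR adjusted p = 0.464), *Ptch1* by 0.92 (SE 0.35, adjusted p = 0.409), *Shh* by 0.90 (SE 0.62, adjusted p = 0.570) and *Gli3* by 0.69 (SE 0.31, adjusted p = 0.427). *Gli2*, *Smo* and *Gli1* were lower by 0.44, 0.40 and 0.39. edgeR called 0 of the 7, against 0.0106% of all genes, and limma-voom and DESeq2 called 0, against 0.0053% and 0.307% of all genes. At an unadjusted p under 0.05 there were 2 of the 7 (*Ptch1* and *Gli3*), against 11.7% of all genes. The groups did not overlap for 3 of the 7 genes, *Gli2*, *Gli3* and *Smo*, all lower in lacZSH, where 26.8% of all genes did not overlap. Without WTSH replicate 2 the value was -0.21 for *Hhip*, -0.46 for *Ptch1*, -0.058 for *Shh*, -0.37 for *Gli3*, -0.10 for *Gli2*, -0.25 for *Smo* and 0.064 for *Gli1*, with adjusted p between 0.756 and 0.987. Without lacZSH replicate 2, *Shh* was at -1.45 and *Gli1* at -0.83.

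With traction, *Gli1* was higher in Tem1lacZ/lacZ than in Tem1WT/WT mice by 1.18 on the log2 scale (SE 0.48, edgeR adjusted p = 0.158) and *Shh* by 1.05 (SE 0.63, adjusted p = 0.306). *Hhip*, *Ptch1* and *Gli2* were higher by 0.86, 0.41 and 0.27, and *Gli3* and *Smo* were lower by 0.45 and 0.40, with adjusted p between 0.208 and 0.535. edgeR called 0 of the 7, against 0.106% of all genes, and limma-voom and DESeq2 called 0, against 0.0849% and 13.2% of all genes. At an unadjusted p under 0.05 there was 1 of the 7 (*Gli1*), against 26.1% of all genes. The groups did not overlap for 1 of the 7 (*Gli1*), against 26.6% of all genes. Without lacZTR replicate 2 the value was 0.755 for *Gli1*, 0.47 for *Shh*, 0.27 for *Hhip*, 0.084 for *Ptch1*, 0.00025 for *Gli2*, -0.66 for *Gli3* and -0.51 for *Smo*, with adjusted p between 0.177 and 1.

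The interaction, which is the traction effect in Tem1lacZ/lacZ mice less that in Tem1WT/WT mice, was positive for all 7 genes. It was 2.29 for *Hhip* (SE 1.06), 1.95 for *Shh* (SE 0.88), 1.57 for *Gli1* (SE 0.67) and 1.33 for *Ptch1* (SE 0.50), with edgeR adjusted p of 0.548 or 0.555. *Gli2*, *Gli3* and *Smo* had 0.72, 0.24 and 0.01. edgeR called 0 of the 7, as it called 0% of all genes, and limma-voom and DESeq2 called 0, with 0% and 0.368% of all genes called. At an unadjusted p under 0.05 there were 3 of the 7 (*Ptch1*, *Gli1* and *Shh*), against 8.91% of all genes. Without WTSH replicate 2 and lacZTR replicate 2, which were chosen after seeing the data as the libraries highest in *Shh*, the values for *Hhip*, *Shh*, *Gli1* and *Ptch1* were 0.48, 0.53, 0.69 and 0.55. Those of *Gli3* and *Smo* were then -0.29 and -0.26.

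**Figure D2:**
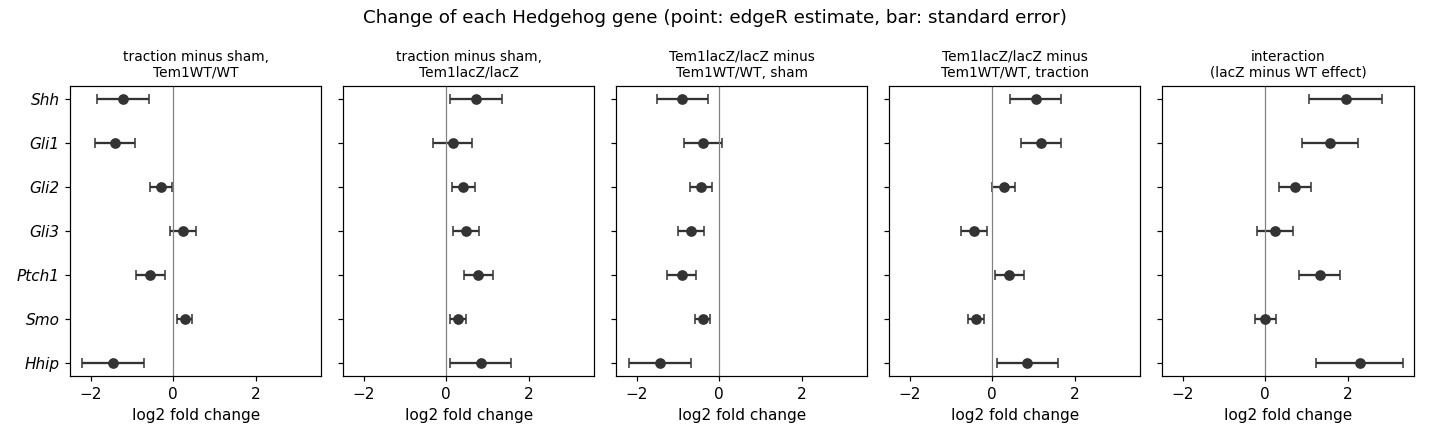
Log2 fold change of each Hedgehog gene (points) with its standard error (bars), from edgeR, in the 5 comparisons. In Tem1WT/WT mice *Gli1* is at -1.41 and in Tem1lacZ/lacZ mice at 0.16, and no gene in any panel passed the test.

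Across the 12 libraries the 7 genes varied together in part. The log2 CPM of *Hhip* followed that of *Shh* with a Pearson r of 0.981 (permutation p = 1e-05, the smallest that the permutations can give; adjusted p = 6e-05 over 6 genes) and a Spearman rho of 0.972 (permutation p = 1e-05). For *Gli1* r was 0.890 and rho 0.846 (permutation p = 3e-05 and 9e-04, adjusted 9e-05 and 0.0027), and for *Ptch1* r was 0.865 and rho 0.671 (permutation p = 0.00055 and 0.0205, adjusted 0.0011 and 0.0308). For *Gli2* r was 0.814 and rho 0.671 (permutation p = 0.00202 and 0.0203, adjusted 0.00303 and 0.0308). *Gli3* and *Smo* followed *Shh* less closely, with r of 0.495 and 0.295 and rho of 0.385 and 0.259 (permutation p between 0.103 and 0.419, adjusted 0.124 to 0.419).

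These relations were chosen after the data were seen, and the genes share library and depth. Without WTSH replicate 2 and lacZTR replicate 2, the farthest from the median of *Shh*, r was 0.966 for *Hhip*, 0.806 for *Gli1* and 0.620 for *Ptch1*. It was 0.371 for *Gli2*, whose relation therefore rests on those libraries, and 0.203 and 0.0266 for *Gli3* and *Smo*. After the mean of each group was taken off, r was 0.990 for *Hhip*, 0.925 for *Gli1*, 0.880 for *Ptch1*, 0.771 for *Gli2*, 0.746 for *Gli3* and 0.609 for *Smo*. The exact permutation p within groups was between 0.000772 and 0.0131, without adjustment. *Shh* and *Hhip* were both lowest in replicate 1 and highest in replicate 2 of every group. Whether replicate number has a part in these relations was not tested. As a description, the r between *Gli3* and *Smo* over the 12 libraries was 0.938, and that between *Gli1* and *Smo* was -0.05.

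**Figure D3:**
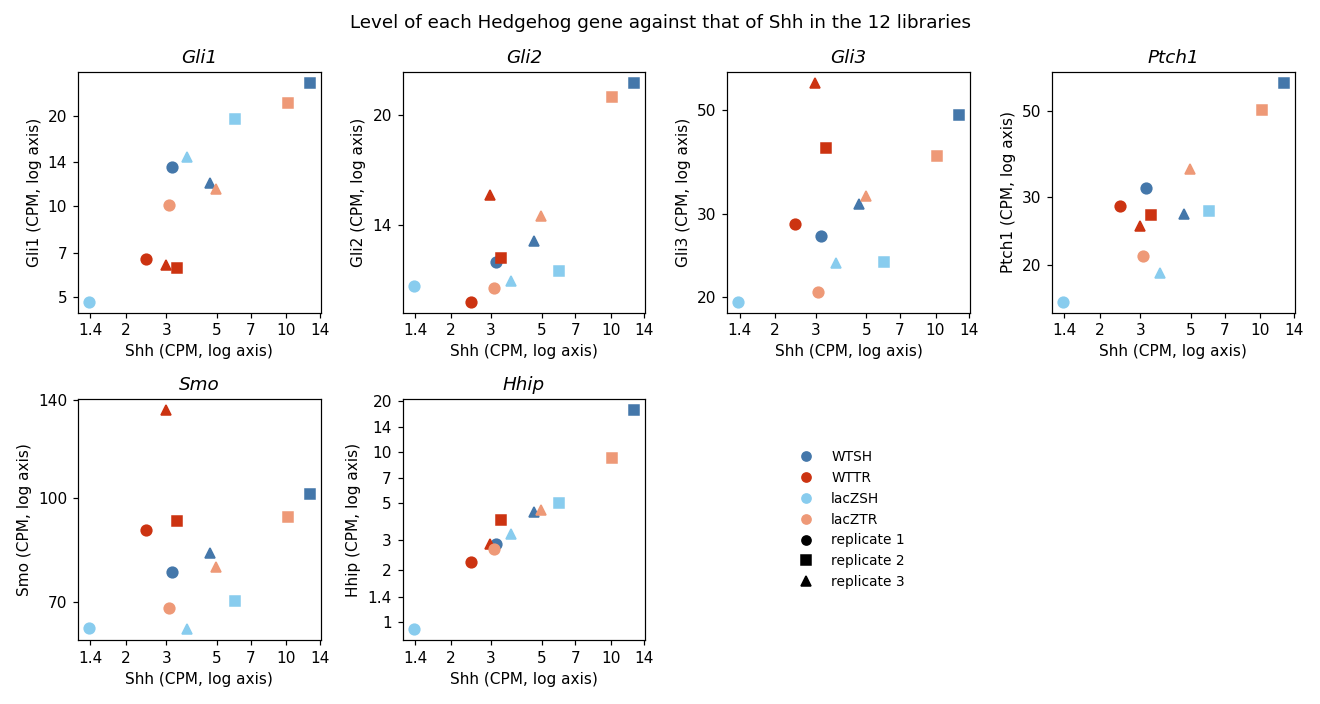
Level of 6 Hedgehog genes against that of *Shh* in the 12 libraries, both in CPM on log axes, by group (colour) and replicate (symbol). *Hhip* lies along a narrow line (r = 0.981), while *Smo* is scattered (r = 0.295), and WTSH replicate 2 and lacZTR replicate 2 are the highest in *Shh*.

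The RNA comes from bulk scar tissue of mixed cell types, so fewer cells of a type and less RNA per cell cannot be told apart. Markers of follicle layers that arise next to the cells that make *Shh* were therefore followed in the same libraries. They are named hair matrix and shaft genes here, but *Krt25*, *Krt27*, *Krt71* and *Tchh* among them are genes of the inner root sheath. Of 12 listed genes, 11 were tested (keratins such as *Krt25*, *Krt31* and *Krt71*, with *Foxn1*, *Msx2*, *Tchh* and others). Their mean log2 CPM was 7.80 to 8.86 in WTSH, 5.97 to 6.88 in WTTR, 6.09 to 8.42 in lacZSH and 7.16 to 7.83 in lacZTR. All WTTR libraries were below all WTSH and lacZTR libraries. With traction in Tem1WT/WT mice, all 11 had negative values and did not overlap between groups, with a median log2 fold change of -1.80. The study placed *Krt25*, *Krt27*, *Krt71*, *Foxn1* and *Hoxc13* among genes it picked from these same libraries. The lower values of these genes are therefore not independent evidence. Of the 11, 2 passed the test by edgeR (*Hoxc13* and *Tchh*), 11 by DESeq2 and 0 by limma-voom. Over all genes, 35.7% did not overlap in this comparison, and edgeR, DESeq2 and limma-voom called 9.15%, 21.6% and 3.97%. In Tem1lacZ/lacZ mice the median was -0.24. There edgeR, DESeq2 and limma-voom each called 0 of the 11, beside 0%, 0.19% and 2.31% of all genes. At an unadjusted p under 0.05 by edgeR there were 0 of the 11, against 8.12% of all genes.

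The hair matrix and shaft level went with *Gli1* at r = 0.894 and rho = 0.748 (permutation p = 0.00022 and 0.00679, adjusted over 7 genes 0.00154 and 0.0475). For *Shh* r was 0.754 and rho 0.650 (permutation p = 0.00462 and 0.0262, adjusted 0.0153 and 0.0917), and for *Hhip* r was 0.726 and rho 0.538 (permutation p = 0.00655 and 0.0759, adjusted 0.0153 and 0.177). The rank correlations of *Shh* and *Hhip* thus did not pass the correction. For *Ptch1*, *Gli2*, *Gli3* and *Smo* r was 0.480, 0.397, -0.0003 and -0.19, and rho was 0.315, 0.238, -0.08 and -0.13, with permutation p between 0.115 and 0.999 and adjusted p between 0.201 and 0.999. Without WTTR replicate 1 and lacZSH replicate 1, the farthest from the median of the marker level, r was 0.851 for *Gli1*, 0.612 for *Shh* and 0.571 for *Hhip*. Within groups r was 0.816, 0.760 and 0.796 (exact permutation p = 0.0486, 0.0363 and 0.0239). For *Ptch1*, *Gli2*, *Gli3* and *Smo* it was 0.493, 0.317, 0.357 and 0.220 (exact permutation p between 0.156 and 0.408). These p-values within groups were not adjusted over the 7 genes, so they do not show that any of these relations passes the correction. The part of the hair follicle genes in the differences between groups was not tested.

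**Figure D4:**
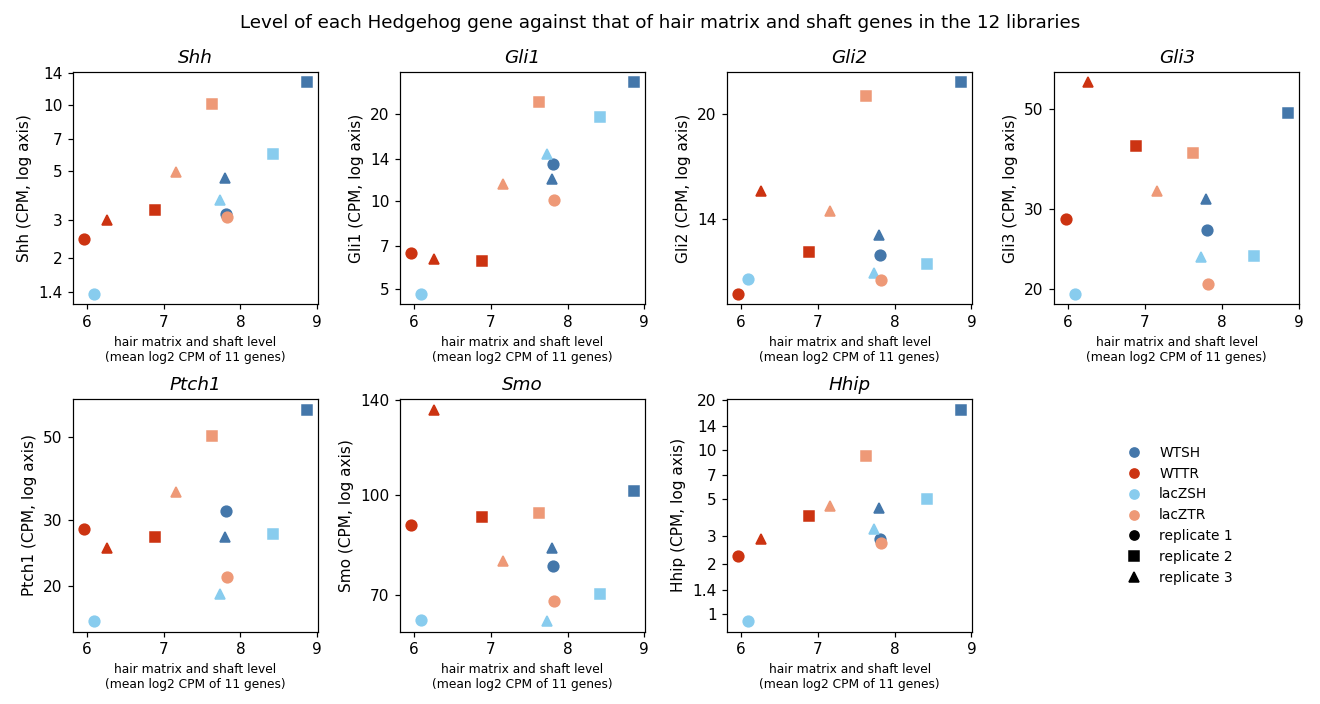
Level of each Hedgehog gene (CPM, log axis) against the mean log2 CPM of 11 hair matrix and shaft genes in the 12 libraries, by group (colour) and replicate (symbol). Some of the 11 genes are of the inner root sheath. *Gli1* goes up with the marker level (r = 0.894) and *Gli3* and *Smo* do not (r = -0.0003 and -0.19).

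Other marker lists had values away from 0 with traction in Tem1WT/WT mice. Among 6 neutrophil genes the median log2 value was 4.78, and it was -2.98 for 6 skeletal muscle genes, -1.48 for 5 adipocyte genes, -1.07 for 7 Schwann cell genes, -0.996 for 6 sebaceous gland genes and 0.99 for 8 fibroblast genes. By edgeR, 4 neutrophil genes and 2 fibroblast genes (all higher), 2 sebaceous gland genes (both lower) and 0 muscle, adipocyte or Schwann cell genes were called. In this comparison edgeR called 9.15% of all genes. The study also picked *Csf3r*, *Col1a1*, *Col1a2*, *Col3a1*, *Lhx2* and *Sox9* of these lists from the same libraries, so their values are not independent evidence. Outer root sheath and stem cell genes had a median of -0.84 with 2 of 8 called, dermal papilla genes -0.27 with 0 of 8 called and basal and suprabasal epidermis genes 0.06 with 0 of 6 called. The dermal papilla genes went both ways, with 5 negative and 3 positive values from -1.81 to 1.60. Of these 8, 4 had an unadjusted p under 0.05 by edgeR, against 31.4% of all genes. In Tem1lacZ/lacZ mice the medians of all these lists were between -1.16 and 0.91, and edgeR called 0 of their genes, as it called 0% of all genes. Their part in the values of the Hedgehog genes was not tested.

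**Figure D5:**
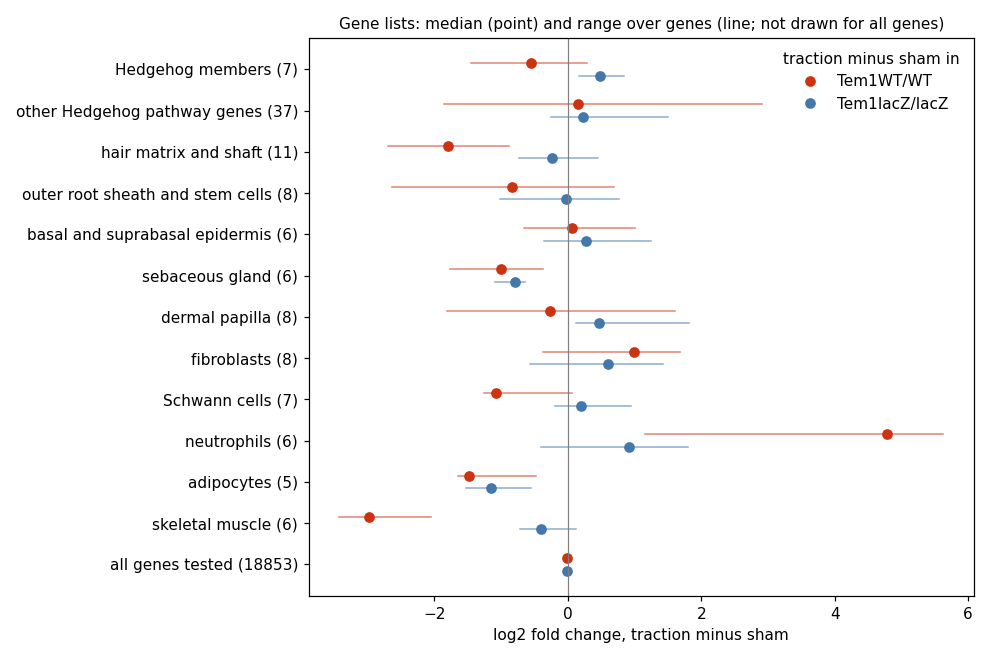
Median log2 fold change with traction (points) and range over the genes (lines) of each gene list, in Tem1WT/WT and Tem1lacZ/lacZ mice, with the number of genes tested in brackets. The 7 Hedgehog genes have medians of -0.55 and 0.48, and the hair matrix and shaft genes -1.80 and -0.24.

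A further 41 pathway genes were listed by role, of which 37 were tested. With traction in Tem1WT/WT mice 4 of the 37 passed the test, all higher, a share near the 9.15% of all genes tested, and the median was 0.15. limma-voom called the same 4, and DESeq2 called 9 of the 37 (8 higher and *Mycn* lower), beside 3.97% and 21.6% of all genes. Of 7 tested genes on the list of known transcriptional targets, 5 had negative values and 2 had positive values, with a median of -0.37. *Snai1*, a transcription factor of mesenchymal cells that the pathway can induce, rose from 5.67 ± 1.16 to 36.8 ± 9.06 CPM (SD, n = 3 each; log2 fold change 2.70, SE 0.29, edgeR adjusted p = 0.0154). *Gas1*, a co-receptor that presents the ligand, rose from 107 ± 15.5 to 235 ± 67.4 CPM (log2 fold change 1.14, SE 0.19, adjusted p = 0.0252). *Foxf1*, a mesenchymal target, rose from 0.216 ± 0.0873 to 1.66 ± 0.390 CPM (log2 fold change 2.91, SE 0.57, adjusted p = 0.0281) on 6 to 101 counts. *Grk2*, a kinase that acts on Smoothened and is listed in the files under an older symbol, rose from 83.6 ± 4.60 to 137 ± 29.8 CPM (log2 fold change 0.71, SE 0.19, adjusted p = 0.0434). The fitted values of *Gli1*, *Shh* and *Hhip* in this comparison were negative.

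In the other 4 comparisons edgeR called 0 of the 37, with 7, 6, 10 and 2 at an unadjusted p under 0.05 in Tem1lacZ/lacZ traction, genotype without traction, genotype with traction and interaction, where the shares of all genes were 8.12%, 11.7%, 26.1% and 8.91%. DESeq2 called 1, 0, 4 and 0 of the 37 in these comparisons, beside 0.19%, 0.307%, 13.2% and 0.368% of all genes. limma-voom called 2 (*Gas1* and *Snai1*), 0, 0 and 0, beside 2.31%, 0.0053%, 0.0849% and 0% of all genes. The 4 calls did not hold without WTSH replicate 1 or without WTSH replicate 2, where edgeR called 0 genes in all, nor with only the 6 libraries of the groups compared. The call of *Foxf1* was also lost without lacZSH replicate 3, and among the fits that left out 1 library that of *Grk2* held only without WTTR replicate 2 and without lacZTR replicate 1. By DESeq2, *Grk2*, *Snai1*, *Gas1* and *Foxf1* were called lower in Tem1lacZ/lacZ than in Tem1WT/WT mice with traction (for the last 3, log2 fold change -1.60, -0.71 and -2.04, adjusted p = 3.394e-05, 0.0163 and 0.00817), a comparison in which DESeq2 called 13.2% of all genes. edgeR and limma-voom called none of these 4 there, with edgeR adjusted p between 0.0666 and 0.0952.

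*Dhh*, the other ligand that could be tested, had a log2 fold change with traction of 0.67 in Tem1WT/WT and 0.62 in Tem1lacZ/lacZ mice (edgeR adjusted p = 0.159 and 0.622). *Ihh* had only 2 to 8 counts per library and was left out by the filter. The co-receptors *Boc* and *Cdon* had -0.02 and 0.60 in Tem1WT/WT mice and 0.31 and 0.62 in Tem1lacZ/lacZ mice, with adjusted p between 0.326 and 0.963. *Sufu*, the inhibitor that holds Gli proteins in the cytoplasm, had 0.76 and 0.53 (adjusted p = 0.0630 and 0.614).

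Without traction, the values of *Dhh*, *Boc*, *Cdon*, *Gas1* and *Sufu* in Tem1lacZ/lacZ relative to Tem1WT/WT mice were all negative, from -0.68 to -0.24, with edgeR adjusted p between 0.409 and 0.721. With traction they were -0.69 for *Gas1*, -0.67 for *Sufu*, -0.67 for *Cdon*, -0.33 for *Dhh* and -0.19 for *Boc*, with adjusted p between 0.0952 and 0.570. The interaction was between -0.45 and 0.32 for these 5 genes, with adjusted p between 0.609 and 0.995.

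Among 14710 genes whose average log2 CPM over libraries was 0 or more, the 5 genes most like *Shh* by the r of log2 CPM over the 12 libraries included *Dlx3* (0.939), *Lef1* (0.936), *E2f2* (0.932) and *Dclk3* (0.926). Those most like *Gli1* were *Dlx4* (0.965), *Golga7b* (0.951), *Mycn* (0.947), *Lepr* (0.936) and *Mlana* (0.927). These values are descriptions. All 9 were highest in WTSH replicate 2, as *Shh* and *Gli1* were. *Dlx3* also belongs to the hair matrix and shaft list.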

How the data were processed

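RNA-seq counts of 12 scar libraries were used. Per the submitters' processing notes, the authors trimmed reads with fastp 0.20.0, aligned them to GRCm38 with HISAT2 2.1.0 and counted them with featureCounts 2.0.0; the authors deposited whole-number counts per gene, without normalization. The annotation, strand setting and treatment of reads with several alignments are not given in the sources used here. Of values from 1 to 10, 63.9% to 68.4% per library were even, against 49.4% to 50.4% above 100, so low counts may not be independent reads; the cause was not tested. Nothing says whether libraries of a group were prepared separately beyond coming from 3 mice.

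Genes were filtered with filterByExpr, normalized by TMM and tested in R 4.3.3 with edgeR 4.0.16 (robust quasi-likelihood, 4 groups in a single model, 8 residual degrees of freedom, two-sided), with Benjamini-Hochberg adjustment over all genes tested and calls at an adjusted p under 0.05. Correlations used log2 CPM (prior count 2) and 100000 permutations of the libraries, or all 1296 rearrangements within groups. Exon lengths came from GENCODE vM21. Alternatives used limma 3.58.1 (limma-voom with sample weights throughout) and DESeq2 1.42.0, other filters and scalings, a replicate block and leaving out libraries. Shares of all genes called by DESeq2 are of the genes to which it gave an adjusted p, 14007 to 18728 by comparison. DESeq2 is the tool that the study itself used. The code was tested on simulated data, where DESeq2 made more false calls than edgeR and limma-voom, so calls by DESeq2 alone are less certain. The simulated counts were drawn with the spread that edgeR estimated and with changes in WTTR only, which may favour edgeR. In turn, edgeR missed most of the smaller changes put into those data, so a gene it did not call may still have changed. Figures were drawn in Python with matplotlib.

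The members and lists were chosen with earlier results of these data known. Named were the 7 genes, a fixed set of further pathway genes, any other listed pathway gene that passed the test, *Cd248* and the 5 genes most like *Shh* and *Gli1*; 1 gene that this rule names is not reported here. No pair of libraries was a copy of another. The log2 fold changes, CPM and p-values were computed here from the deposited counts.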

Additional observations from a re-analysis of the deposited data

How the results depend on the processing

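Of the 7 Hedgehog genes, 0 were called in every comparison under each alternative tried, except with traction in Tem1WT/WT mice, where DESeq2 called 1 (*Gli1*) and leaving out each library in turn gave 0 to 1. Some values changed sign, and not all of them were near 0. The interaction of *Smo* (0.0054) was -0.00073 with DESeq2 size factors, -0.00059 with DESeq2, -0.26 without WTSH replicate 2 and lacZTR replicate 2 together, and -0.14 to 0.25 with each library left out. Without that pair, *Gli2* with traction in Tem1WT/WT mice was 0.034 in place of -0.30, and *Gli1* with traction in Tem1lacZ/lacZ mice -0.27 in place of 0.16. *Gli1* between genotypes without traction was 0.064 in place of -0.39, and the interaction of *Gli3* -0.29 in place of 0.24. With each library left out these ranged over -0.46 to 0.035, -0.27 to 0.62, -0.83 to 0.064 and -0.074 to 0.55, and *Gli3* with traction in Tem1WT/WT mice over -0.031 to 0.55. Within groups the correlation with the hair matrix and shaft level was 0.357 for *Gli3* and 0.220 for *Smo*. The cause of these changes was not tested.

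Over all genes, the number called with traction in Tem1WT/WT mice was 1725, against 4047 by DESeq2, 748 by limma-voom, 1011 without a filter and 0 with only the 6 libraries compared, and 0 to 2861 with each library left out (0 without WTSH replicate 1 or 2). The call of *Grk2* was lost under 15 of 22 alternatives, those of *Gas1*, *Snai1* and *Foxf1* under 4 of 22, 4 of 22 and 5 of 21.

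Replicate numbers mark different mice. For this reason the main fit did not pair them, and a replicate block was tried as an alternative. Of 18 same-numbered pairs of libraries in different groups, 8 had a correlation of deviations over 0.1 (range -0.324 to 0.25). Among differently numbered pairs, only lacZSH replicate 1 with lacZTR replicate 3 (0.373) and lacZSH replicate 2 with lacZTR replicate 1 (0.34) were over 0.1. In addition, 8 of 12 libraries were most like a same-numbered one. *Shh* and *Hhip* were also lowest in replicate 1 and highest in replicate 2 of every group. A shared effect of replicate number is thus not excluded, and its cause was not tested. With the replicate block 0 of the 7 genes were called in each comparison, 1467 genes were called with traction in Tem1WT/WT mice, the interaction of *Smo* was -0.0044, and *Grk2* with traction in Tem1WT/WT mice had an adjusted p of 0.0638 in place of 0.0434.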
